A study of Sus scrofa with 24 samples.

Results

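The translation initiation and elongation factors are the proteins that bring ribosome, initiator tRNA and messenger RNA together and then move the ribosome along the message. Their genes were chosen by name: every pig gene symbol that starts with EIF or EEF, apart from EIF1AX, EIF1AY and EIF2S3. By that rule 59 of the 38882 genes counted in the libraries were members, and 56 of the 59 reached the level required for testing.

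RNA was sequenced from the hippocampus of 24 piglets, all PIC Camborough (dam) x PIC 359 (sire) and all 14 days old. Piglets were small (SGA) or appropriate (AGA) for gestational age by birth weight, and 12 litters each gave 1 pair, an SGA piglet and a same-sex AGA littermate fed alike. Litters received either a control formula with triglyceride oils (CON) or a formula with hydrolyzed fat (HF), in which free fatty acids, monoacylglycerol palmitate and lecithin replaced part of the triglyceride and cholesterol was added. The 4 groups, AGA CON, SGA CON, AGA HF and SGA HF, held 6 piglets each, with 3 males and 3 females in every group, and the piglets came in 2 cohorts of 6 litters. SGA status arose by natural growth before birth and not by a procedure, so that anything else in which littermates of unequal birth weight differ was part of the contrast.

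Initiation starts when the eIF2 complex, loaded with GTP and the initiator tRNA, joins the small ribosomal subunit together with eIF1 and the many-subunit eIF3. The eIF4 group recognizes the cap of the message and unwinds its leader, and the scanning complex stops at a start codon, where eIF5B joins the large subunit. The exchange factor eIF2B reloads eIF2 with GTP, a step that the eIF2 kinases block under stress, while the 4E-binding proteins hold the cap-binding protein eIF4E back when mTOR signalling is low. In elongation, eEF1A delivers each aminoacyl-tRNA, the eEF1B complex recharges eEF1A with GTP, and eEF2 moves the ribosome forward unless the kinase EEF2K has phosphorylated it. Messages for many of these factors belong to a class whose translation depends on mTOR. In neurons, control of eIF2, eIF4E and eEF2 is known for its part in long-lasting synaptic change.

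Library depth ranged from 6017336 to 9284355 counts assigned to genes, with a median of 7346072. Depth overlapped between groups, with 6204809 to 8723343 counts for AGA CON, 6017336 to 9217875 for SGA CON, 6224421 to 7474872 for AGA HF and 6931595 to 9284355 for SGA HF. A gene with 3 counts stood at 0.323 to 0.499 CPM depending on the library, where CPM is the count scaled to a library total of 1000000. The library of AGA CON replicate 2 had the lowest mean correlation with the other libraries across genes, at 0.964. The remaining 23 ranged from 0.966, in SGA CON replicate 6, to 0.976. No other single library was left out. Calls of members that moved without AGA CON replicate 2 are given both ways, but not every count of higher and lower values.

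Of the 4 markers of hippocampal granule and pyramidal cells that were found by name, NEUROD2 (479.98 CPM on average), PROX1 (48.2 CPM) and WFS1 (3.77 CPM) were measured. The other, ZBTB20, was at 0.036 CPM and was not tested. NEUROD6 of that list, RBFOX3 of neurons, CDH5 of endothelium and HBA of red blood cells had no entry under those names. They are left out of all marker counts and sums. General neuronal markers, with SLC17A7 the most abundant, summed to between 2745 and 7106 CPM in every library, all 5 listed markers of mature oligodendrocytes were present with MBP the highest, and astrocyte markers were led by GFAP. Markers of choroid plexus, the tissue that could be carried over at dissection, had a median sum of 50.6 CPM and reached 174 CPM in the highest library. No marker gene found by name was at 0 in all libraries. In bulk tissue, fewer cells of a type and less RNA per cell cannot be told apart.

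Together the members took 0.932 to 1.20% of all gene counts, the lowest share in SGA CON replicate 6 and the highest in AGA HF replicate 2. To compare levels between genes, CPM was divided by the length of each gene model in kilobases. The paper gives the RNA quality number only as an average over its samples, and the part of RNA quality in levels per kilobase was not tested. On that scale EEF1A1, which delivers aminoacyl-tRNA, was the most abundant member at 1351 ± 125 CPM per kilobase (SD, n = 24). EEF2, which moves the ribosome forward, followed at 638 ± 25.8, and EEF1G, the structural subunit of the eEF1B complex, at 363 ± 37.5. EEF1G and EIF1, which guards start codon choice and stood at 326 ± 29.0 CPM per kilobase, were neighbours in the order and differed by less than the sum of their SDs. The RNA helicase EIF4A2, the paralog of EIF4A1 that is enriched in brain, stood at 290.4 ± 25.7, followed by the eIF3 subunits EIF3G at 264 ± 23.0, EIF3H at 230.3 ± 20.6 and EIF3K at 211 ± 21.9, and neighbours in this run differed by less than the sum of their SDs. The median over the 56 tested members was 26.3 CPM per kilobase.

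Regulators spanned the order. The cap-binding protein gene EIF4E stood at 6.46 ± 0.785 CPM per kilobase (SD, n = 24), below its partners EIF4G1 (38.6 ± 2.78) and EIF4A1 (21.3 ± 2.74) and below its repressors EIF4EBP1 (26.3 ± 5.12) and EIF4EBP2 (14.5 ± 1.28). EIF4E and EIF4EBP1 had similar CPM, so their order rests on the lengths of their gene models, 2749 and 654 bases. EEF2K, the kinase that inactivates eEF2, stood at 4.11 ± 0.481. Among the eIF2 kinases, EIF2AK1, which responds to low heme, was the highest at 45.3 ± 4.16 CPM per kilobase. The kinase of endoplasmic reticulum stress, EIF2AK3, stood at 0.672 ± 0.21 with 8 to 55 counts per library, and the amino acid sensor EIF2AK4 at 0.766 ± 0.321 with 2 to 13 counts. EIF2S1, the eIF2 subunit that these kinases phosphorylate, stood at 15.4 ± 1.2.

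**Figure D1:**
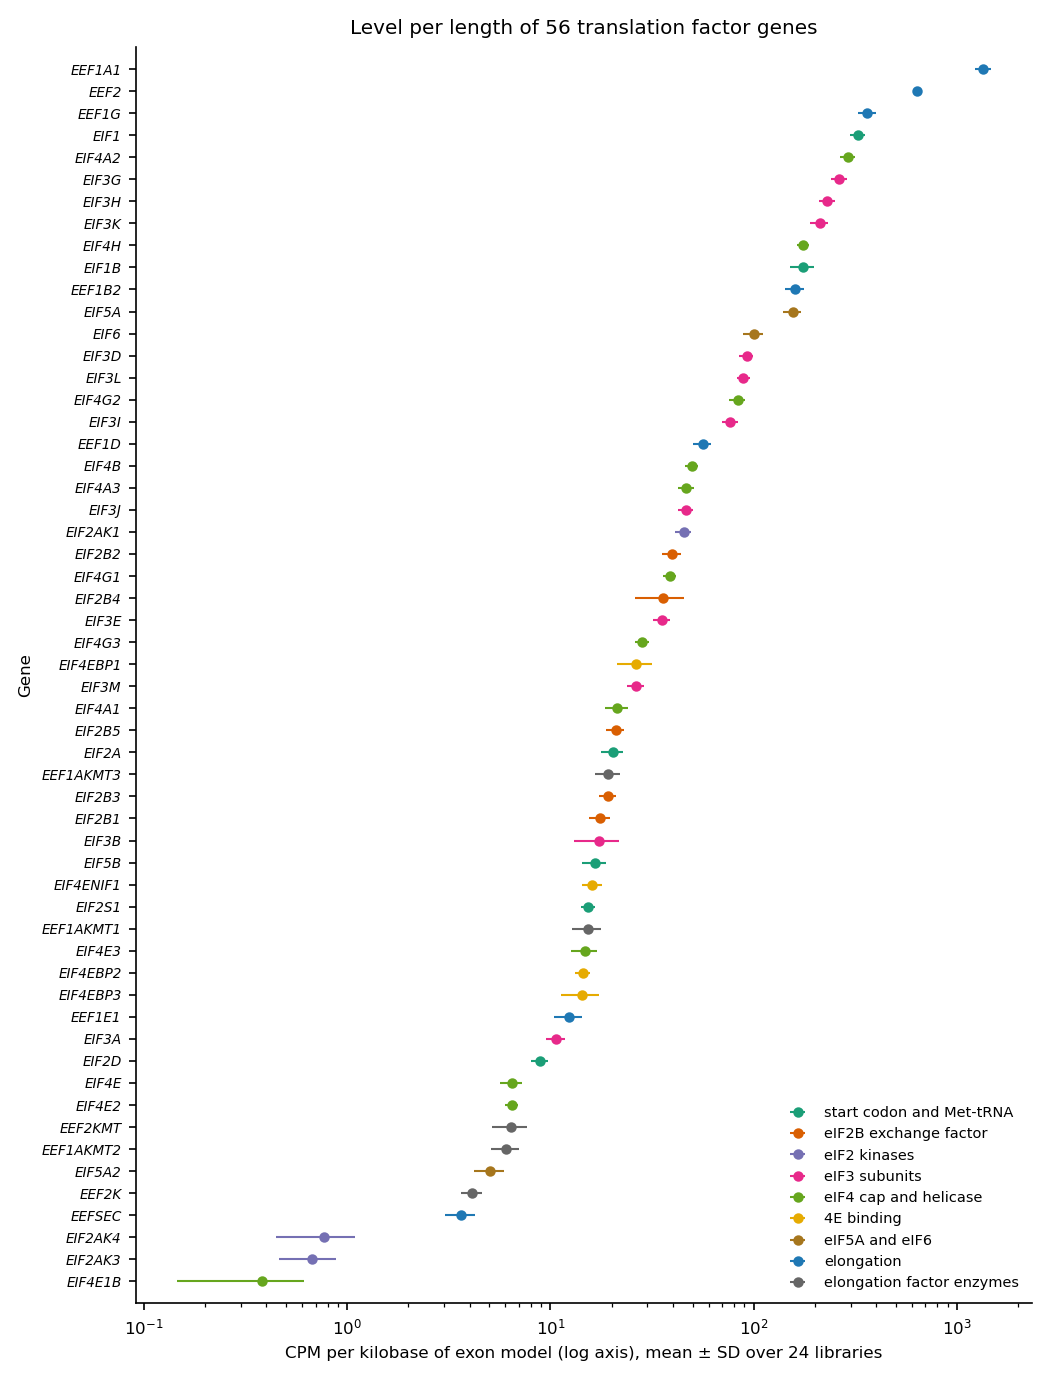
Level of each of the 56 tested members in CPM per kilobase of gene model on a log axis, as mean and SD (bar) over 24 libraries, ordered by level and coloured by role. EEF1A1 and EEF2 stand at the top, and the kinases EIF2AK4 and EIF2AK3 and the cap-binding gene EIF4E1B (0.379 CPM per kilobase, named after its value was seen) at the bottom.

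The 3 members that were not tested were EIF1AD and EIF2S2, with 0 counts in every library, and EIF2AK2, the kinase activated by double-stranded RNA, with 2 to 8 counts per library and a highest level of 0.614 CPM. EIF2S2, the beta subunit of eIF2, had a gene model of 491 bases. Whether its 0 comes from the model or from the tissue was not tested. Other short models were those of EIF3B (259 bases), EIF2B4 (465 bases), EIF4EBP1 (654 bases) and EEF1AKMT3 (668 bases), and levels per kilobase of these rest on that length. EEF1A2, EIF3F and EIF5 were not analysed here, and 11 of the 13 subunits of eIF3 were.

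Positions are those of build Sscrofa10.2, in which 55 members lay on 15 chromosomes and EEF1AKMT3, EEFSEC, EIF3B and EIF6 were on unplaced sequence. EEF1A1 was at chr1:103474147-103477893, EEF1B2 at chr15:121000537-121004164, EEF1D at chr4:1038509-1047368 and EEF1G at chr2:8507926-8518113. EIF1 was at chr12:21278602-21281184, its paralog EIF1B at chr13:26926936-26932666, EIF4EBP1 at chr15:55557800-55560845 and EEF2K at chr3:24287297-24412626. Each count sums the reads over all annotated exons of the gene, untranslated exons included. EEF1A1, EIF1 and several others have near-identical processed copies in mammalian genomes, and how reads shared with such copies were counted was not given in the sources used here, so these levels are uncertain to that extent.

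The comparison of SGA with AGA asked whether being born small went with another level of these genes. All 7 tested elongation factors had a fitted value below that of the AGA piglets, led by EEF1B2, EEF1A1, EEF1D and EEF1G, although EEF2 and EEFSEC lay so close to 0 that their sign flipped with RLE size factors. The start codon factor EIF1 was lower in the SGA piglet of 12 of 12 litters. The differences were small, at most 0.13 on the log2 scale for these 5 genes, and none passed the threshold. Of the 56 members 0 were called at an adjusted p (FDR) under 0.4, where 0.478% of all 16326 tested genes were called (edgeR quasi-likelihood test, Benjamini-Hochberg adjustment jointly over 7 contrasts). DESeq2 called 1 member, EIF1 (1.29% of all genes), and voom 0 (0.325% of all genes). Without AGA CON replicate 2, 2 members were called, where 2.46% of all genes were, EIF1 (log2 -0.13, adjusted p = 0.281) and EEF1B2 (log2 -0.13, adjusted p = 0.347).

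In all, 18 members had a higher and 38 a lower fitted value in SGA piglets (20 and 36 without AGA CON replicate 2). The median log2 difference was -0.03 against -0.002 over all tested genes. At an unadjusted p under 0.05, 10 members were lower and 1 was higher, where 4.95% of all genes were lower and 5.6% higher. Members under that p made up 19.6% of those tested, beside 10.6% of all genes. This excess was not seen without AGA CON replicate 2, where 5 members were under that p (8.93%, beside 9.86% of all genes), all of them lower, namely EIF1, EEF1A1, EEF1B2, EEF1D and EEF1G. With litter as a block, 11 members were under that p, all of them lower (19.6%, beside 12.4% of all genes). The median half-width of a member's 95% confidence interval in the reported fit was 0.112 on the log2 scale.

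The summed level of the 7 elongation factors was 5734 ± 343 CPM in AGA and 5349 ± 199 CPM in SGA piglets (SD, n = 12 each). The sum was lower in the SGA littermate in 10 of 12 litters. In CON litters the lowest, median and highest sums were 5383, 5621 and 6034 CPM for AGA and 5041, 5377 and 5572 CPM for SGA. In HF litters they were 5371, 5686 and 6536 CPM for AGA and 5035, 5334 and 5567 CPM for SGA. The groups overlapped in both diets, and in both the SGA median lay below the lowest AGA value. Because EEF1A1 and EEF2 hold most of this sum, it was also taken without them, at 910 ± 87.9 CPM in AGA and 822 ± 40.8 CPM in SGA, lower in 11 of 12 litters. The AGA spread was the wider, from AGA HF piglets in particular. In the sum of all 7 factors, AGA HF replicate 2 was the highest at 6536 CPM, and the next AGA HF piglet was at 6098 CPM. How far the size values rest on AGA HF replicate 2 was not tested, since that library was not left out on its own.

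EEF1A1 ranged from 2449.7 over a median of 2738 to 3243 CPM in AGA piglets and from 2139 over 2492 to 2708 CPM in SGA piglets. The SGA littermate was lower in 10 of 12 litters, while the ranges overlapped. The fitted log2 difference was -0.11 (SE 0.038, adjusted p = 0.588).

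EEF1B2 encodes the subunit that exchanges GDP for GTP on eEF1A. It ranged from 163 over a median of 175 to 228 CPM in AGA and from 149 over 163 to 184 CPM in SGA piglets, lower in the SGA littermate in 10 of 12 litters. The log2 difference was -0.13 (95% CI -0.22 to -0.05, adjusted p = 0.49).

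EEF1D, another exchange subunit of the same complex, ranged from 107 over 123 to 154 CPM in AGA and from 97.4 over 111 to 129.9 CPM in SGA piglets. It was lower in the SGA littermate in 12 of 12 litters, although the smallest of these differences was close to 0. The log2 difference was -0.11 (SE 0.044, adjusted p = 0.642). EEF1G, which holds the complex together, ranged from 496 over 560.0 to 696 CPM in AGA and from 473 over 526 to 557 CPM in SGA piglets. It was lower in 11 of 12 litters, with the AGA median just above the highest SGA value, and its log2 difference was -0.09 (SE 0.038, adjusted p = 0.676).

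EEF2 did not share this pattern of littermate signs. It ranged from 1920.1 over 2071 to 2211 CPM in AGA and from 1852 over 2092 to 2149 CPM in SGA piglets, lower in the SGA littermate in 3 of 12 litters, with a log2 difference of -0.002 (95% CI -0.06 to 0.05). EEF1E1, which sits in the aminoacyl-tRNA synthetase complex, was lower in 4 of 12 litters at log2 -0.03, and EEFSEC, the factor for selenocysteine, in 6 of 12 at log2 -0.001. The count of 7 lower and 0 higher elongation factors thus rested on values near 0 for EEF2, EEF1E1 and EEFSEC. It became 5 lower and 2 higher with RLE size factors, without the filter on low counts, with litter as a block, in DESeq2 and without AGA CON replicate 2, while EEF1A1, EEF1B2, EEF1D and EEF1G were lower in each of these.

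**Figure D2:**
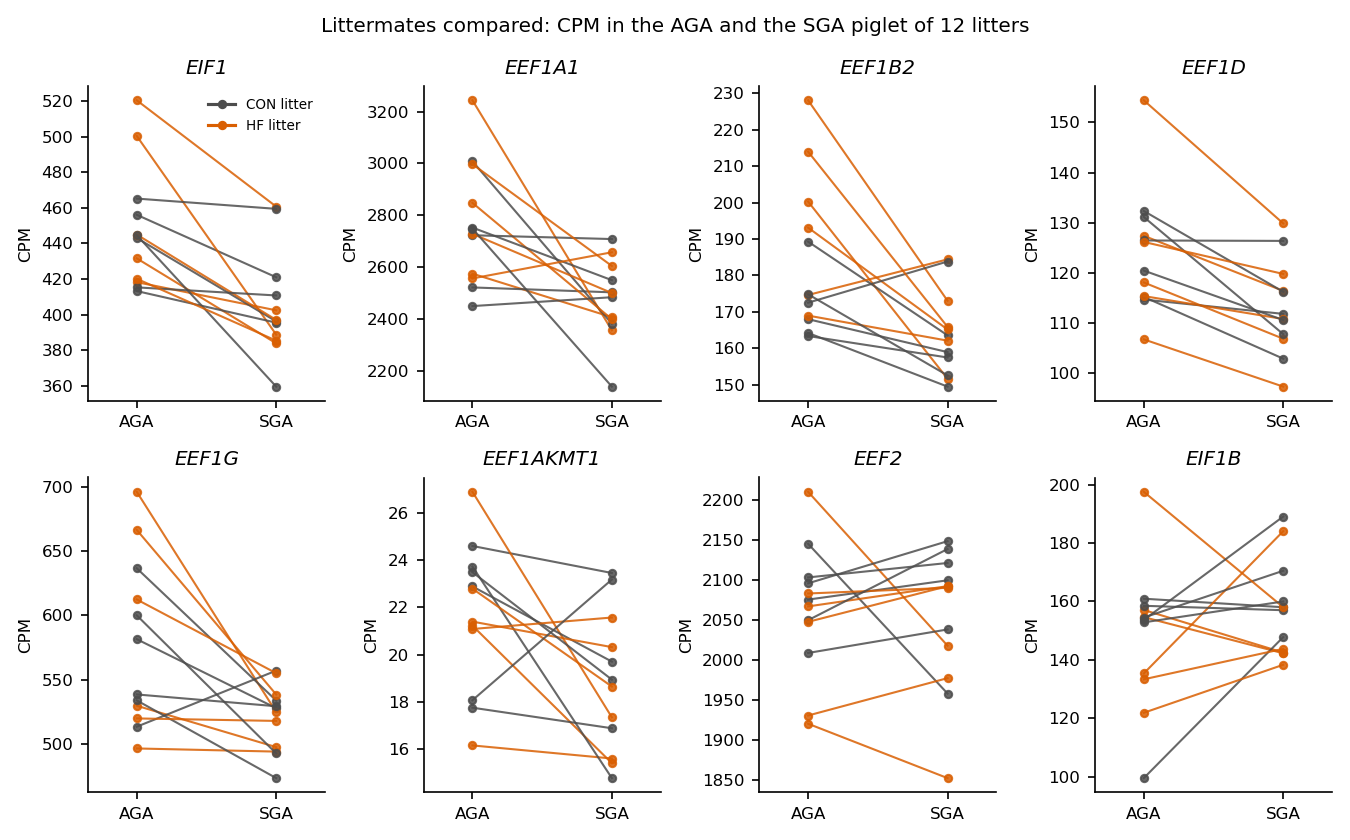
CPM of selected members in the AGA and SGA littermate of each of the 12 litters, joined by a line and marked by diet, with axes that do not start at 0. EIF1 and EEF1D decline from AGA to SGA in all litters, whereas EEF2 declines in 3.

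EIF1, which keeps the scanning ribosome from starting at a wrong codon, ranged from 413 over a median of 444 to 520.4 CPM in AGA and from 359.7 over 397 to 461 CPM in SGA piglets. Ranges overlapped, but each SGA piglet lay below its own littermate, by 0.02 at the least and 0.36 at the most on the log2(CPM + 0.5) scale. The fitted log2 difference was -0.12 (95% CI -0.20 to -0.05, adjusted p = 0.485). Its paralog EIF1B had values of 99.5, 154 and 198 CPM at the lowest, median and highest AGA piglet and of 138, 157 and 189 CPM in SGA piglets. EIF1B was the member of smallest p among those higher in SGA piglets, at log2 0.11 (SE 0.045, adjusted p = 0.674), and was lower in 5 of 12 litters. Its lowest value came from AGA CON replicate 2, without which the log2 difference was 0.09.

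EIF2S1, the regulated subunit of eIF2, was at 36.5 ± 2.8 CPM in AGA and 38.0 ± 2.96 CPM in SGA piglets (SD, n = 12 each), lower in 3 of 12 litters, with log2 0.09 (SE 0.056, adjusted p = 0.828). Its kinase EIF2AK1 was at 117 ± 11.1 and 124 ± 10.4 CPM, also lower in 3 of 12, with log2 0.08 (SE 0.049, adjusted p = 0.816). EIF2AK3 was at 3.61 ± 1.10 and 4.23 ± 1.32 CPM and was lower in 2 of 12 litters, with log2 0.13. EIF2AK4 gave log2 -0.30 from 2 to 13 counts, a sign that turned to 0.016 with litter as a block and to 0.10 in cohort 2. None of these differences exceeded the spread between piglets. Of the 5 subunits of eIF2B, the exchange factor, 2 had higher and 3 lower fitted values, with 1, EIF2B5, under an unadjusted p of 0.05 (log2 -0.13, adjusted p = 0.719). EIF2B5 was chosen after its values were seen and did not stay under that p with litter as a block or without AGA CON replicate 2. Without that library 1 subunit was higher and 4 were lower.

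Among the 11 measured eIF3 subunits, the scaffold of initiation on the small ribosomal subunit, 4 had higher and 7 lower fitted values, with a median log2 of -0.03. Without AGA CON replicate 2, 3 were higher and 8 lower. The summed level of the 11 subunits over all libraries was 1481 ± 93.1 CPM in AGA and 1432 ± 53.5 CPM in SGA piglets (SD, n = 12 each), lower in 8 of 12 litters. EIF3K, a small peripheral subunit, ranged from 159 over 192 to 237 CPM in AGA and from 158 over 179 to 202 CPM in SGA piglets, lower in 9 of 12 litters, with log2 -0.11 (SE 0.052, adjusted p = 0.713). EIF3I was at 87.7 ± 7.37 and 82.7 ± 7.03 CPM, lower in 9 of 12. EIF3M gave log2 -0.11 (adjusted p = 0.761) with 8 litters lower, and EIF3D, which can bind the cap itself, gave log2 0.07 (adjusted p = 0.862) with 6. For the remaining subunits the number of litters in which the SGA piglet was lower was 6 for EIF3A, 4 for EIF3B, 7 for EIF3E, 8 for EIF3G, 7 for EIF3H, 8 for EIF3J and 8 for EIF3L.

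The eIF4 genes divided into 5 higher and 7 lower, with a median log2 of -0.01. The paralogous helicases stood apart in their littermate signs. EIF4A1 had values of 29.6, 32.6 and 39.2 CPM at the lowest, median and highest AGA piglet and of 21.5, 27.8 and 35.8 CPM in SGA piglets. It was lower in 10 of 12 litters, with log2 -0.13 (SE 0.075, adjusted p = 0.799). EIF4A2 was at 652 ± 68.0 and 658 ± 49.0 CPM (SD, n = 12 each), lower in 4 of 12, with log2 0.02. The difference between the paralogs was not tested. EIF4H, which assists the helicase, was at 447 ± 31.7 and 455 ± 28.2 CPM with log2 0.06 (adjusted p = 0.855). EIF4G2, a scaffold for initiation without eIF4E, gave log2 -0.09 (SE 0.041, adjusted p = 0.721).

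Besides the helicases, the cap-binding EIF4E and the scaffold EIF4G1 had nearly equal means in both sizes. EIF4E was at 17.9 ± 1.8 CPM in AGA and 17.6 ± 2.54 CPM in SGA piglets (log2 0.04), and EIF4G1 at 221 ± 17.6 and 222 ± 14.9 CPM (log2 0.01). The repressors EIF4EBP1 and EIF4EBP2 gave log2 -0.02 and -0.05, with EIF4EBP2 at 104.6 ± 11.3 and 101 ± 6.4 CPM. Of the 4 genes of eIF4E-binding proteins 1 was higher and 3 were lower, and 0 had an unadjusted p under 0.05. Without AGA CON replicate 2 this turned to 3 higher and 1 lower.

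The summed level of EIF5A, EIF5A2 and EIF6 was 406.8 ± 38.1 CPM in AGA and 375.9 ± 31.5 CPM in SGA piglets (SD, n = 12 each), lower in 10 of 12 litters, and all 3 fitted values were lower, with a median log2 of -0.11. EIF5A, which helps ribosomes through stalling sequences and carries the modified lysine hypusine, was chosen for mention with its values already seen. The later assembly used for naming puts EIF5A on another chromosome than the deposited files do, so its identity rests on the gene identifier alone. It ranged from 249.6 over 291 to 355 CPM in AGA and from 239.6 over 268 to 319.9 CPM in SGA piglets, lower in 11 of 12 litters, with log2 -0.12 (SE 0.053, adjusted p = 0.699). Among enzymes that act on elongation factors, EEF1AKMT1, a lysine methyltransferase of eEF1A, ranged from 16.2 over 22.1 to 26.9 CPM in AGA and from 14.8 over 18.8 to 23.5 CPM in SGA piglets. It was lower in 10 of 12 litters, with log2 -0.25 (SE 0.099, adjusted p = 0.652). EEF2K was at 26.6 ± 2.51 and 27.9 ± 3.73 CPM, with log2 0.06 (SE 0.065, adjusted p = 0.912).

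**Figure D3:**
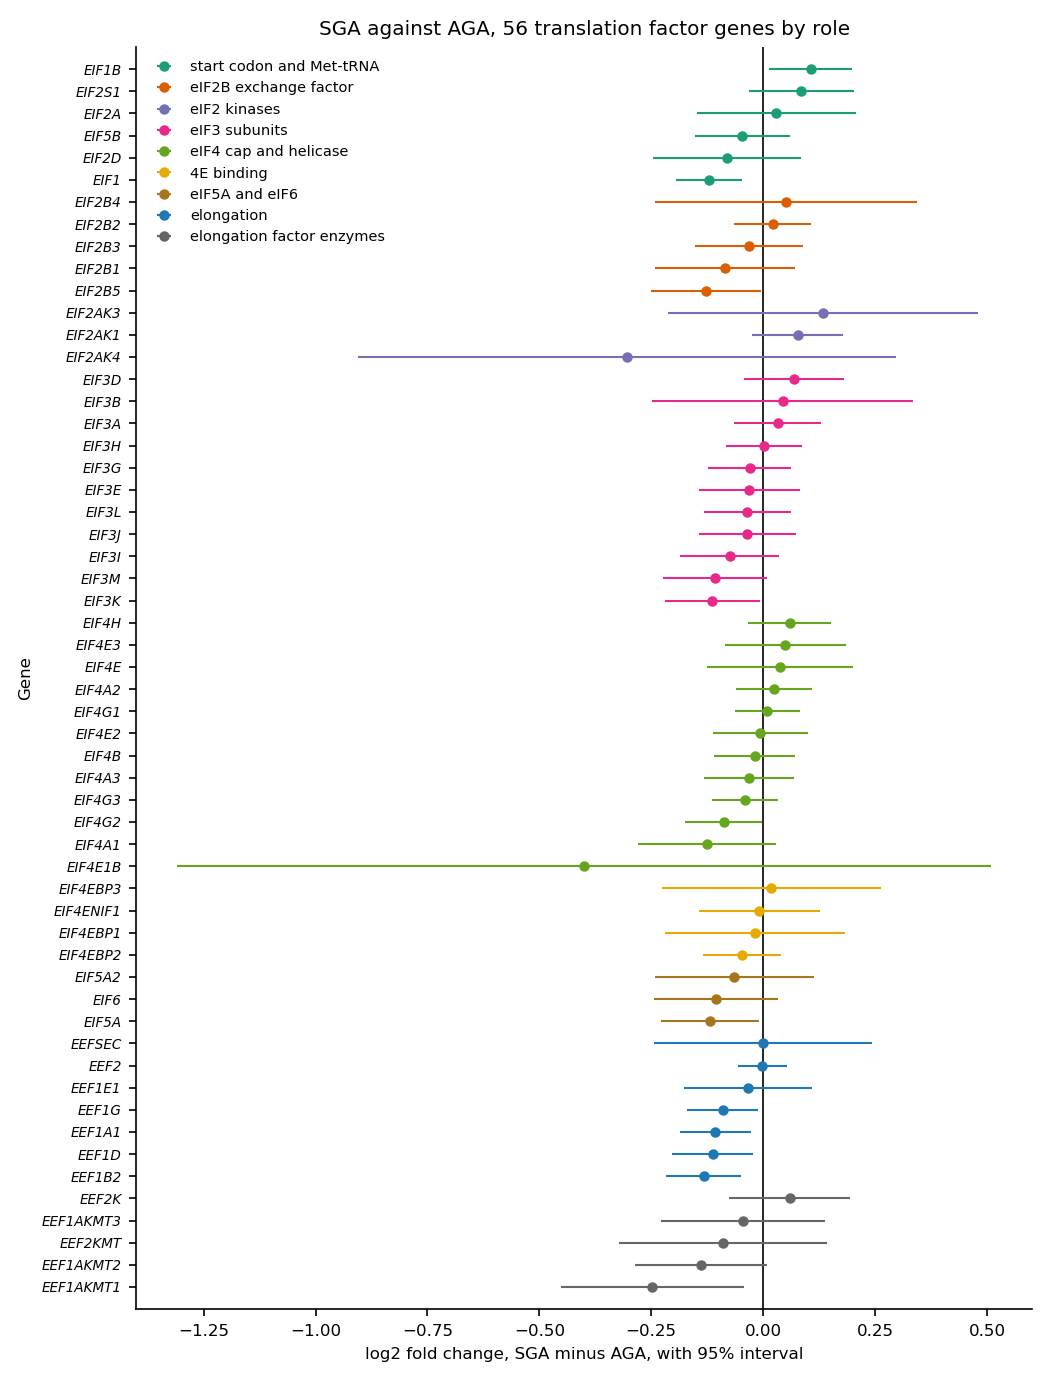
Fitted log2 difference of SGA minus AGA piglets for each tested member with its 95% confidence interval, ordered by role. The 7 elongation factors lie at or left of 0, with EEF2 and EEFSEC changing sign under RLE size factors, and most intervals in the other roles cross 0.

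Littermates carry the size comparison most directly. The SGA piglet was lower in at least 11 of 12 litters for 4 members, EIF1, EEF1D, EEF1G and EIF5A, which 1.56% of all genes also reached. It was lower in at least 10 litters for 8 members (4.86% of all genes) and in at least 9 for 13 members (11.7%). In the other direction, 0 members were higher in at least 11 litters (1.01% of all genes), 1 in at least 10 (3.8%) and 6 in at least 9 (10.7%). The number of tested members lower in the SGA piglet ran from 23 in the CON litter of pair 12 to 43 in the HF litter of pair 3, while 48.4 to 52.7% of all genes were lower in each litter. The median log2 difference of the members was -0.19 in pair 3, the litter of AGA HF replicate 2. The next lowest litter median was -0.07, in the CON litter of pair 4. With litter as a block, in a model that drops sex and the surrogate variables and adjusts over 4 contrasts, 20 members had higher and 36 lower values, and 0 were called, where 2.57% of all genes were. EIF1 had the smallest adjusted p in that model, at 0.402, followed by EEF1D at 0.41, EEF1B2 at 0.412, EEF1A1 at 0.47 and EEF1G at 0.483.

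**Figure D4:**
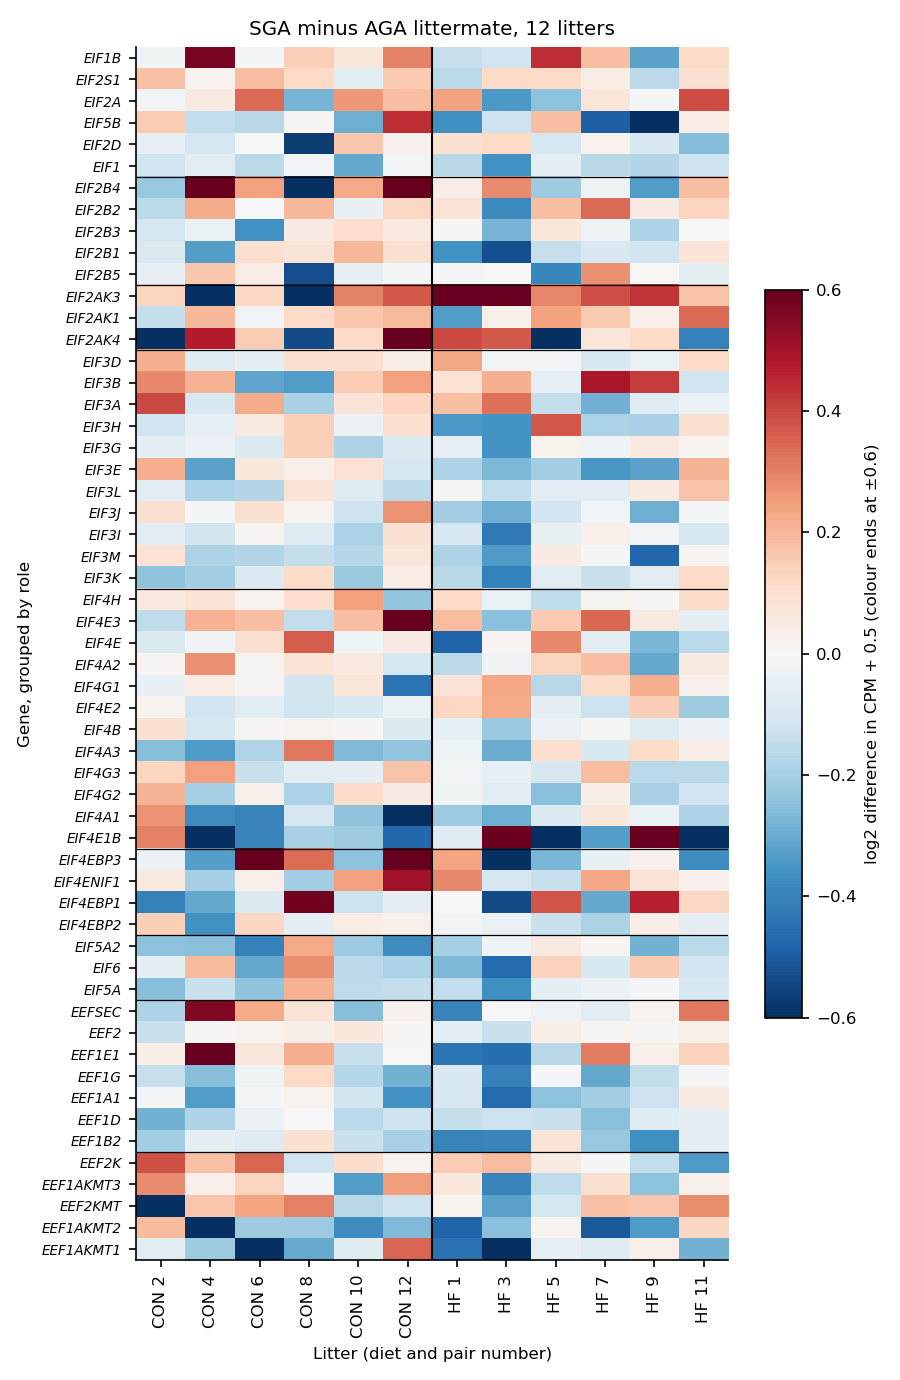
Difference of the SGA and the AGA littermate on the log2(CPM + 0.5) scale for each tested member (rows, by role) in each of the 12 litters (columns, CON then HF, with pair numbers), in colours that end at 0.6 in either direction. Blue, lower in the SGA piglet, fills at least 11 litters for EIF1, EEF1D, EEF1G and EIF5A, and columns differ in how many members are lower.

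Fitted within each cohort, 41 members were lower in cohort 1 and 36 in cohort 2, and 0 were called in each, as were 0 of all 16326 genes. At an unadjusted p under 0.05 there were 9 members in cohort 1 (16.1%, beside 6.06% of all genes) and 2 in cohort 2 (3.57%, beside 8.54%). EEF1A1, EEF1B2, EEF1D and EIF1 were among the 9, and the 2 were EEF1AKMT2 and EIF2AK1. EIF1 gave log2 -0.17 in cohort 1 and -0.14 in cohort 2, EEF1B2 -0.19 and -0.15, EEF1A1 -0.20 and -0.12, EEF1D -0.16 and -0.12, and EEF1G -0.16 and -0.14. These 5 genes kept their sign in both cohorts. EEF1AKMT1 (-0.36 and -0.06), EIF5A (-0.22 and -0.04) and EIF3K (-0.21 and -0.03) had most of their difference in cohort 1. The difference between cohorts was not tested.

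Sums of cell type markers were compared between littermates as well. The summed level of the 5 markers of mature oligodendrocytes on CON was 18554 ± 2015 CPM for AGA and 14191 ± 1966 CPM for SGA piglets, and on HF 18313 ± 3910 CPM for AGA and 15813 ± 3280 CPM for SGA piglets (SD, n = 6 each). That sum was lower in the SGA littermate in 11 of 12 litters, with all 5 fitted values lower, a median log2 of -0.15 and 0 of 5 with an unadjusted p under 0.05. MBP, the most abundant of them, was at 7332 ± 1456 CPM in AGA and 5862 ± 1200 CPM in SGA piglets. The sum of the oligodendrocyte progenitor markers was lower in 10 of 12 litters. OLIG1 (log2 -0.10) made up most of that sum at 651 CPM, while the 3 other progenitor markers, PDGFRA (log2 0.03), CSPG4 (log2 0.23) and OLIG2 (log2 0.07), had higher fitted values. The SGA littermate had the lower sum of neuronal markers in 4 of 12 litters, of markers of hippocampal granule and pyramidal cells in 4 of 12 and of astrocyte markers in 7 of 12. The neuronal sum on CON was 5181 ± 1231 CPM for AGA and 5907 ± 753 CPM for SGA piglets, and on HF 4993 ± 889 and 5387 ± 269 CPM. All 3 tested markers of granule and pyramidal cells had higher fitted values in SGA piglets, with a median log2 of 0.16, and 2 of them, NEUROD2 (log2 0.16, adjusted p = 0.506) and WFS1 (log2 0.56, adjusted p = 0.652), were under an unadjusted p of 0.05. NEUROD2 was at 454.7 ± 75.6 CPM in AGA and 505 ± 36.5 CPM in SGA piglets (SD, n = 12 each). The neuronal transporter SLC17A7, which made up most of the neuronal sum at 3380 CPM, gave log2 0.14 (adjusted p = 0.506), and the other neuronal markers lay closer to 0, with SYT1 at log2 0.05, GAD1 at 0.006, SNAP25 at -0.008 and GAD2 at -0.02. The part of these markers in the values of EIF1 and the elongation factors was not tested.

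Within the control diet, SGA CON and AGA CON were compared to see the size difference without hydrolyzed fat. Of the 56 members 0 were called, where 0.129% of all genes were, with 24 higher and 32 lower. At an unadjusted p under 0.05, 1 member was higher (3.12% of all genes) and 3 were lower (3.47%). The member that was higher was EEF2K, at log2 0.19 (SE 0.088, adjusted p = 0.713), and the lower ones were EIF1, EIF5A and EIF3K. EIF1 had log2 -0.15 (SE 0.049, adjusted p = 0.555). Without AGA CON replicate 2, EIF1 alone was under that unadjusted p. With litter as a block 0 members were called (1.26% of all genes). The members under that p were then the lower EEF1AKMT2, EEF1D, EIF4A1 and EIF5A2 (7.14% of members, beside 8.64% of all genes), without EEF2K, EIF1, EIF5A or EIF3K.

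Within the hydrolyzed fat diet, 17 members were higher and 39 lower in SGA HF than in AGA HF piglets, with a median log2 of -0.06. Again 0 were called, where 0.288% of all genes were. With an unadjusted p under 0.05 there were 0 higher members (4.77% of all genes) and 3 lower ones (3.25%). EEF1B2 gave log2 -0.15 (SE 0.055, adjusted p = 0.592), EEF1A1 -0.15 (SE 0.053, adjusted p = 0.601) and EIF4G2 -0.17 (adjusted p = 0.56). Without AGA CON replicate 2, which enters through the shared spread and surrogate variables, EEF1B2 (adjusted p = 0.371) and EIF4G2 (log2 -0.16, adjusted p = 0.397) were called, where 2.52% of all genes were, and 7 members were under that unadjusted p (12.5%), 6 of them lower, while the number of all genes under it went from 1310 to 1667 of 16326. With litter as a block 0 members were called (0.888% of all genes), and 9 lower members and 1 higher one were under that p (8.13% of all genes), among them EEF1A1, EEF1B2, EEF1D, EEF1G and EIF1. The interaction of size and diet, given after the diets, is the test of a difference between them.

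The comparison of HF with CON asked whether the form of dietary fat went with the level of the factors. Most members differed little. The values that stood farthest from 0 relative to their error were the mTOR-controlled repressor EIF4EBP1, the exchange subunit EEF1B2 and the helicase cofactor EIF4B, which were higher on HF, and the subunit-joining factor EIF5B, which was lower in the fit over piglets. Of the 56 members 0 were called, where 0.159% of all genes were (edgeR quasi-likelihood test). DESeq2 called 2 members, EIF4EBP1 and EEF1B2 (0.539% of all genes), and voom 0 (0.0613% of all genes). Fitted values were higher for 28 and lower for 28 members (33 and 23 without AGA CON replicate 2). At an unadjusted p under 0.05, 3 members were higher (3.59% of all genes) and 1 was lower (3.5%), so that 7.14% of members and 7.09% of all genes were under that p. Without AGA CON replicate 2, 3 members were called, where 2.65% of all genes were, EIF4EBP1 (log2 0.32, adjusted p = 0.178), EEF1B2 (log2 0.14, adjusted p = 0.247) and EIF2B4 (log2 -0.29, adjusted p = 0.352), and 6 members were under an unadjusted p of 0.05 (10.7%, beside 10.5% of all genes).

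Cell type markers were compared between diets too, and 0 of them were called. Of the 4 markers of meninges and fibroblasts 3 had higher fitted values on HF, with a median log2 of 0.26, and DCN (log2 0.34, adjusted p = 0.642) and COL1A2 (log2 0.29, adjusted p = 0.691) were under an unadjusted p of 0.05. All 3 red blood cell markers were higher, with a median log2 of 0.34 and none under that p. All 5 microglial and all 3 endothelial markers had lower fitted values, with medians of -0.10 and -0.09. Under that p in the lower direction were FLT1 of endothelium (log2 -0.17), GFAP (log2 -0.11) and MBP (log2 -0.22). The part of these markers in the diet values of the members was not tested.

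Diet was given by litter, so the 12 litter means are the unit in which CON and HF are independent. In a fit on the litters, 30 members were higher and 26 lower on HF, 0 were called (0.00613% of all genes), and 2 had an unadjusted p under 0.05 (3.98% of all genes). For 0 members did all HF litters lie above (0.098% of all genes) or below (0.0613%) every CON litter.

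EIF4EBP1 had litter means of 13.9, 15.8 and 18.1 CPM at the lowest, median and highest CON litter and of 16.0, 18.2 and 22.1 CPM at the HF litters. All 6 HF litters lay above the CON median and 3 above every CON litter. The log2 difference over piglets was 0.35 (SE 0.098, adjusted p = 0.433), and in the fit on litters it was 0.25 (SE 0.10, adjusted p = 0.999). Among AGA piglets EIF4EBP1 ranged from 14.5 over a median of 15.9 to 18.5 CPM on CON and from 13.3 over 17.7 to 25.0 CPM on HF. Among SGA piglets it ranged from 13.2 over 13.9 to 21.8 CPM on CON and from 17.1 over 18.8 to 19.8 CPM on HF. The SGA HF piglets had the narrowest range of the 4 groups and lay above all SGA CON piglets but replicate 4, which was the highest of its group.

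EEF1B2 had litter means of 157, 164 and 178 CPM in CON and 166, 179 and 201 CPM in HF, with 4 HF litters above every CON litter. The log2 difference was 0.14 (SE 0.040, adjusted p = 0.471) over piglets and 0.11 (SE 0.058) over litters. EEF1B2 was thus the member with an unadjusted p under 0.05 for both size and diet in the fit over piglets. In the fit on litters it was not under that p for diet. EEF1B2 was highest in AGA HF at 169, 197 and 228 CPM and lowest in SGA CON at 149, 158 and 184 CPM. AGA CON had 163, 170.2 and 189 CPM and SGA HF 152, 166 and 184 CPM, and all 4 groups overlapped.

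EIF4B had litter means of 99.9, 110.1 and 114 CPM in CON and of 104, 118 and 124 CPM in HF. In 5 of 6 HF litters it was above every CON litter, and the log2 difference was 0.11 (SE 0.043, adjusted p = 0.652) over piglets and 0.10 over litters. EIF5B had means of 64.1, 67.7 and 74.7 CPM in CON and of 64.9, 66.7 and 78.7 CPM in HF, which overlapped throughout. Its log2 difference of -0.13 (SE 0.051, adjusted p = 0.659) over piglets was -0.003 over litters, 0.0052 without surrogate variables and 0.042 without AGA CON replicate 2.

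The other members with the smallest p for diet were EIF2B2, EIF2B4, EIF4H and EEF2K. EIF2B2, a subunit of the eIF2 exchange factor, gave log2 0.08 (SE 0.041, adjusted p = 0.745). EIF2B4, the delta subunit of that factor, had litter means of 14.8, 16.5 and 26.2 CPM in CON and 10.6, 15.3 and 18.6 CPM in HF, with log2 -0.28 over piglets (SE 0.142, adjusted p = 0.756) and -0.27 over litters, and its gene model was short. EIF4H (log2 -0.08, adjusted p = 0.783) and EEF2K (log2 -0.11, adjusted p = 0.797) each had 2 HF litters below every CON litter.

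**Figure D5:**
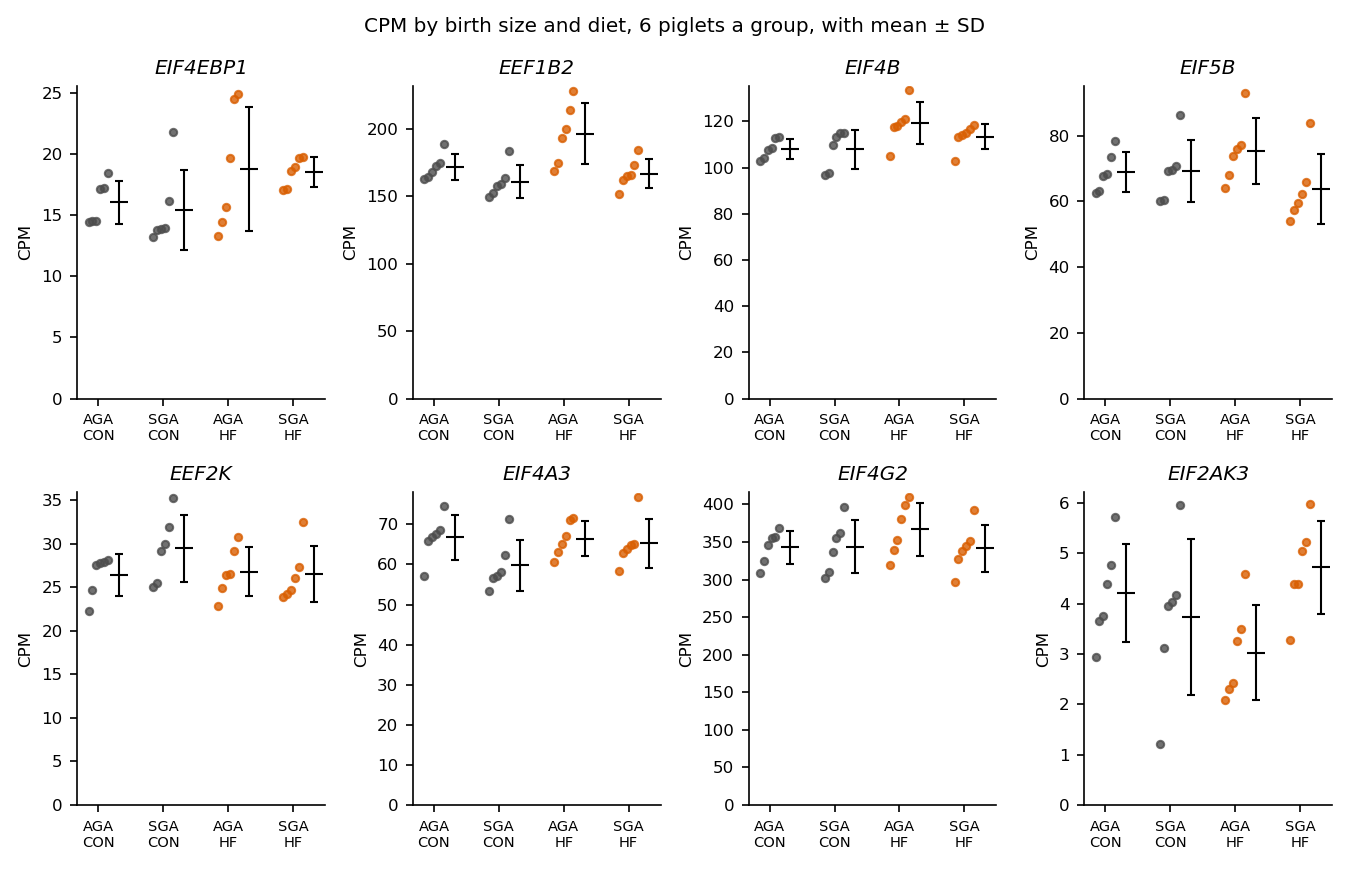
CPM of 8 members named for diet or for the interaction in each piglet of the 4 groups (points, 6 a group, CON grey and HF orange), with mean and SD (bar) beside them and axes from 0. The groups overlap in every panel, with the SGA HF piglets of EIF4EBP1 close together between 17.1 and 19.8 CPM.

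Within AGA piglets, 34 members were higher and 22 lower on HF, 0 were called (0.0674% of all genes), and 2 had an unadjusted p under 0.05 in the higher direction (2.79% of all genes) and 0 in the lower (3.3%). The 2 were EEF1B2 (log2 0.16, adjusted p = 0.581) and EIF4B (log2 0.14, adjusted p = 0.701). Without AGA CON replicate 2, EEF1B2 was called (log2 0.17, adjusted p = 0.323), where 2.74% of all genes were, and the members under an unadjusted p of 0.05 went from 2 to 9 (11.0% of all genes). Within SGA piglets, 28 were higher and 28 lower, and 0 were called (0.0919% of all genes). There 4 members had an unadjusted p under 0.05 in the higher direction (2.74% of all genes), EIF4EBP1, EIF2B2, EIF4A3 and EEF1B2, and 3 in the lower (2.42%), EEF2K, EIF5B and EIF4H. EIF4EBP1 gave log2 0.43 (SE 0.133, adjusted p = 0.506) and was called without AGA CON replicate 2 (log2 0.37, adjusted p = 0.286), where 0.576% of all genes were. EEF2K gave log2 -0.25 (adjusted p = 0.586). The 7 members under that unadjusted p were 12.5% of those tested, beside 5.16% of all genes. They became 3 without AGA CON replicate 2 (EIF4EBP1, EIF4A3 and EEF2K), or 5.36% beside 4.54% of all genes. The number was 1 without surrogate variables (EIF2B4, 3.62% of all genes), 0 in the fit on litters (4.61%) and 0 in voom with litter as a random block (3.69%).

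The interaction of size and diet asked whether the size difference was another on HF than on CON. Of the 56 members 0 were called, where 0.049% of all genes were, and DESeq2 (0.104% of all genes) and voom (0.00613%) each called 0. With litter as a block 0 were called as well, where 0.276% of all genes were. At an unadjusted p under 0.05, 1 member was higher (2.09% of all genes) and 2 were lower (1.91%), so that 5.36% of members and 4.01% of all genes were under that p. No elongation factor was among them, so a size difference in these genes that depends on the diet was not detected at this number of piglets. Among cell type markers, the interaction was below 0 for all 4 of meninges and fibroblasts (median log2 -0.38), all 3 of red blood cells (-0.40) and all 3 tested of choroid plexus (-0.42), and above 0 for all 5 of astrocytes (0.15). The astrocyte marker GFAP (log2 0.22, adjusted p = 0.682) was under an unadjusted p of 0.05. None of these markers was called, and their part in the values of the members was not tested.

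EEF2K had the smallest p in the fit with surrogate variables. With litter as a block, EEF2K, EIF4A3 and EIF4G2 were not under an unadjusted p of 0.05, while EIF2AK3 and EIF3J were (3.57% of members, beside 3.73% of all genes). Without AGA CON replicate 2 the number of members under that p went from 3 to 5 (8.93%, beside 4.67% of all genes). For EEF2K, the lowest, median and highest values on CON were 22.3, 27.6 and 28.2 CPM for AGA and 25.0, 29.6 and 35.2 CPM for SGA piglets, and on HF 22.9, 26.4 and 30.8 CPM for AGA and 23.9, 25.4 and 32.5 CPM for SGA piglets. The SGA littermate was lower in 1 of 6 CON litters and 3 of 6 HF litters, and the interaction was log2 -0.27 (95% CI -0.52 to -0.02, adjusted p = 0.703). EIF4A3, a helicase of the exon junction complex that is named among the eIF4 genes, had medians of 67.3 CPM for AGA and 57.5 CPM for SGA piglets on CON, and of 66.04 and 64.4 CPM on HF. It was lower in the SGA littermate in 5 of 6 CON and 3 of 6 HF litters, with an interaction of log2 0.20 (SE 0.092, adjusted p = 0.716).

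EIF4G2 had medians of 350.4 CPM for AGA and 346 CPM for SGA piglets on CON, and of 367 and 341 CPM on HF. The SGA littermate had the lower value in 2 of 6 CON and 5 of 6 HF litters, and its interaction was log2 -0.17 (SE 0.078, adjusted p = 0.722). The stress kinase EIF2AK3, named for its small p in the higher direction, had medians of 4.07 and 3.99 CPM on CON and of 2.84 and 4.72 CPM on HF, and in 0 of 6 HF litters was the SGA littermate lower. Its interaction was log2 0.58 (SE 0.304, adjusted p = 0.764), and 0.84 with litter as a block (adjusted p = 0.573), at a level of few counts.

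Other genes that act with the factors were counted by lists, 56 genes of which 52 were tested. For size, 19 had higher and 33 lower fitted values with a median log2 of -0.04, where 49.2% of all genes were higher. Of the 52, 0 were called (0.478% of all genes). By list, the counts of higher and lower genes were 1 and 5 for termination and recycling, 3 and 3 for poly(A) binding, 6 and 5 for mTOR and S6 kinase, 1 and 5 for the integrated stress response, 2 and 4 for the modification of eIF5A and eEF2, 1 and 1 for non-canonical initiation, 3 and 3 for mitochondrial factors and 2 and 7 for the tRNA synthetase complex. The kinase MTOR itself gave log2 0.10 (SE 0.040, adjusted p = 0.645) and was lower in the SGA littermate in 3 of 12 litters. PABPC1, the poly(A) binding protein that meets eIF4G, gave log2 0.10 (adjusted p = 0.725) and was lower in 2 of 12. In the same list PAIP1, a partner of the poly(A) binding protein that was chosen after its values were seen, was lower in 12 of 12 litters, at 54.8 ± 6.36 CPM in AGA and 48.6 ± 3.8 CPM in SGA piglets (SD, n = 12 each), with log2 -0.09 (adjusted p = 0.792). PABPC4 was lower in 9 of 12, with log2 -0.12 (adjusted p = 0.776). PPP1R15A, the subunit that directs dephosphorylation of eIF2, gave log2 0.11 (adjusted p = 0.721). DOHH, which completes the hypusine of eIF5A, gave log2 -0.17 (SE 0.078, adjusted p = 0.719), and was lower in 8 of 12 litters.

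In the remaining lists the smallest p for size belonged to ETF1, the release factor (log2 -0.08, adjusted p = 0.829), DENR (log2 0.11, adjusted p = 0.8), the mitochondrial release factor MTRF1 (log2 0.16, adjusted p = 0.872) and the methionyl-tRNA synthetase MARS (log2 -0.07, adjusted p = 0.803). For diet, 36 of the 52 were higher and 16 lower on HF with a median log2 of 0.03, where 50.8% of all genes were higher. Of the 52, 0 were called (0.159% of all genes). CHAC1, a target gene of the integrated stress response, gave log2 0.25 (SE 0.081, adjusted p = 0.551), and PAIP1, which links poly(A) binding protein to initiation, log2 0.10 (adjusted p = 0.725). For the interaction, 22 were higher and 30 lower (50.7% of all genes were higher), and 0 were called (0.049% of all genes). ETF1 was the gene of smallest p (log2 -0.25, adjusted p = 0.652).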

How the data were processed

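The authors trimmed single-end reads of stranded poly(A) libraries with Trimmomatic 0.33, aligned them with STAR 2.5.2a to Sscrofa10.2 and counted exons per gene with featureCounts of Subread 1.5.0. The authors deposited raw counts, 1 table per piglet. Counts were scaled to CPM with TMM factors, and gene names were matched by gene identifier to a table of a later assembly, so that positions are those of the deposited files. An entry without an identifier, at 0.613 to 1.62% of counts, was left out. The 16326 genes that reached 1 CPM in 3 or more libraries were fitted in R 4.3.3 with edgeR 4.0.16 (quasi-likelihood test), with terms for group, sex and 5 surrogate variables (sva 3.50.0). P-values were adjusted by Benjamini-Hochberg over 7 contrasts together, and genes were called at an adjusted p (FDR) under 0.4, a threshold that admits many false calls. Levels and littermate signs are TMM CPM without those terms, so they can differ from fitted values. Alternatives used DESeq2 1.42.0, voom (limma 3.58.1), other scalings and filters, single cohorts, litter as a block (without sex or surrogate variables, adjusted over 4 contrasts), and the omission of AGA CON replicate 2, which was added after seeing the data.

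Replicate numbers pair the samples because the labels name the shared litter. Littermates' deviations from the means of their groups correlated at 0.0144 to 0.329 over genes. Each piglet gave 1 library. In the reported fit the p-values measure the spread between piglets left after sex and surrogate variables, with littermates taken as independent. With litter as a block they measure the spread of differences within litters, and in the fit on litters the spread between litters. On simulated counts with known changes for the size comparison (16100 genes), 63.3% of genes changed 1.5-fold and 80.6% of genes changed 2-fold were recovered, with 21 false calls. With litter as a replicate block these shares were 68.4% and 87.8%, with 36 false calls. The simulated counts held no litter or cohort effect, and no change below 1.5-fold was simulated. Recovery of differences as small as those of the members for size was therefore not measured. The members, the gene lists and the tests were chosen with earlier results of these data known. Named genes were those of smallest p by contrast (6 in each direction for size, 4 for diet and 2 for the interaction), the 8 of highest CPM per kilobase, the eIF3 subunits, the untested members and a set fixed by role.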

Additional observations from a re-analysis of the deposited data

Results flagged for a closer look

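In each group of 6 piglets, the highest or lowest value was noted where its gap to the next value divided by the range of the group, exceeded Dixon's 95% critical value. Over 160 groups (40 named members in 4 groups) 14 values met this, and chance meets it in about 1 in 20 groups.

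In AGA CON replicate 2, the library that correlated least with the others, EIF1B (99.5 CPM) and EIF4A2 (525 CPM) were low and EIF4EBP2 (133 CPM) was high. In SGA CON replicate 4, EIF3A (45.8 CPM) was low and EIF3G (318 CPM) and EIF4EBP1 (21.8 CPM) were high, and in SGA CON replicate 6 EIF4G1 (181 CPM) was low. In SGA HF replicate 5, EIF1 (461 CPM) and EIF4A3 (76.8 CPM) were high. In other SGA HF piglets, EIF2AK1 (97.5 CPM) was low in replicate 1, EIF4E (23.6 CPM) was high in replicate 3 and EIF4B (103 CPM) was low in replicate 6. EIF3A (67.5 CPM) was high in AGA HF replicate 3, and EIF3J (95.6 CPM) was high in AGA CON replicate 5.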

How the results depend on the processing

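For size, 0 members were called in the reported fit, 1 with DESeq2, 7 with FDR taken over that contrast alone, which called 7.35% of all genes (EEF1A1, EEF1AKMT1, EEF1B2, EEF1D, EEF1G, EIF1 and EIF1B) and 2 without AGA CON replicate 2. For diet, the count moved from 0 to 1 without the filter on low counts (EIF4EBP1, where 0.164% of all genes were called), to 2 with DESeq2 and to 3 without AGA CON replicate 2. Without that library 2 members were called for SGA HF against AGA HF, 1 for AGA HF against AGA CON and 1 for SGA HF against SGA CON. The cause was not tested. This omission was chosen after seeing the data.

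With litter as a replicate block, which also dropped sex and the surrogate variables, 0 members were called for size, for the interaction and for size within either diet, as without it, while the number of all genes called for size went from 78 to 420, and was 13 without surrogate variables or block. For diet, 0 members were called by voom with litter as a random replicate block, where 0 of all 16326 genes were, and 0 in the fit on litters, where 1 gene was, so these counts say nothing about the members. In the block fits for size and the interaction no call of a member changed.

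Some named members changed sign (all values log2). For size, EEF2 was 0.0031 with RLE size factors, 0.016 without the filter, 0.025 in cohort 2, 0.0029 with DESeq2 and 0.0030 without AGA CON replicate 2. EEFSEC was 0.0046 with RLE size factors, 0.028 without the filter, 0.022 without surrogate variables, 0.022 with a cohort term, 0.0051 in cohort 1, 0.017 in cohort 2, 0.024 with litter as a replicate block, 0.0027 with DESeq2 and 0.0089 without AGA CON replicate 2. EEF1E1 was 0.085 in cohort 2 and 0.013 with the block, EEF2K -0.089 in cohort 2, EIF2AK1 -0.011 in cohort 1, and EIF2AK4 0.10 in cohort 2 and 0.016 with the block. EIF4E was -0.019 without surrogate variables, -0.019 with a cohort term, -0.024 in cohort 1, -0.027 in cohort 2 and -0.024 with the block. EIF4EBP1 was 0.11 in cohort 2 and 0.027 without AGA CON replicate 2, and EIF4A2 was -0.012 and EIF4G1 -0.021 in cohort 2. For diet, EIF2B2 was -0.020 in cohort 2, and EIF5B was 0.0052 without surrogate variables, 0.0051 with a cohort term, 0.060 in cohort 1 and 0.042 without AGA CON replicate 2. For size within HF, EEF2K was 0.12 in cohort 1, and EIF4A3 was -0.024 without surrogate variables, -0.024 with a cohort term, -0.091 in cohort 1 and -0.026 with litter as a replicate block. For size within CON, EIF4G2 was 0.0011 with library totals, 0.0020 without the filter, 0.0031 in cohort 1 and 0.0098 without AGA CON replicate 2. Of 336 recomputed fold changes for size, 304 kept their direction and side of the threshold, 29 changed sign and 3 crossed the threshold. For diet these were 93, 5 and 6 of 104. All 48 for the interaction were kept. For size within CON 44 of 48 were kept and 4 changed sign, and within HF 42 were kept, 5 changed sign and 1 crossed. For diet within AGA and within SGA 25 of 26 each were kept and 1 crossed. Depth limits EIF2AK3 and EIF2AK4, with at most 55 counts in a library. EIF2AK2 was under the filter on low counts, and EIF1AD and EIF2S2 had 0 counts throughout.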
